A study of Mus musculus with 10 samples.

Results

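The expression of 36 presynaptic vesicle release genes was compared between *Zbtb16* KO and wild-type (WT) mice in their prefrontal cortex (PFC). The members were chosen by name as synaptic vesicle, SNARE, active zone and vesicular glutamate transporter genes, with earlier results of these data known. They were all found among the 22000 genes of the count table. All 36 also passed the filter on low counts, which kept 14344 genes. RNA-seq was performed on 5 *Zbtb16* KO and 5 WT mice, labelled male and 7 weeks old, with 1 library for each mouse. The KO mice were homozygous for luxoid (*lu*), a spontaneous nonsense point mutation of *Zbtb16* carried by every cell from conception, and neither genotype received a treatment. The authors give the strain as B6.C3-*Zbtb16* lu/J. Members took up between 2.04% and 2.17% of all counts in each mouse.

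A nerve terminal releases transmitter when a synaptic vesicle fuses with the plasma membrane. Vesicles are filled by vesicular transporters, held in a reserve pool by synapsins, and brought to the active zone by Rab3 GTPases and RIM scaffolds. Munc13 proteins prime the vesicle, the SNARE proteins pull both membranes together, and synaptotagmins start fusion when calcium enters. In the neocortex most excitatory terminals use the transporter encoded by *Slc17a7*, whereas afferents from the thalamus use the one encoded by *Slc17a6*. The counts here are of RNA in PFC tissue, and protein in the terminals of local or distant neurons was not measured.

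Total counts were 30220122 to 51231439 in the 10 libraries, so that 3 counts equalled 0.0586 to 0.0993 CPM (counts scaled by library size). *Zbtb16* itself was at 47.4 ± 4.96 CPM in KO and 79.0 ± 7.23 CPM in WT mice (SD, n = 5 each), without overlap (log2 fold change -0.67, SE 0.058, adjusted p = 2.8e-05). The mutation leaves the exons in place, so reads of the mutant transcript are still counted. The RNA integrity number (RIN) was 9.5 or above in 3 KO and 3 WT mice, and at most 8.3 in 2 KO and 2 WT mice. KO mouse 3 had 1 count in total over *Uty*, *Kdm5d*, *Ddx3y* and *Eif2s3y* of the Y chromosome, against 4376 to 8182 counts in the other mice, which does not match its label as male. It was kept. Without it, 54 genes in place of 121 were called in all, and *Rab3c* was still the only member called.

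*Rab3c* was the only member that passed the test for a genotype difference. The fit was edgeR's quasi-likelihood test with genotype and 3 surrogate variables, which are estimates of hidden variation between the libraries. The first of these variables was largest in size in KO mouse 5 (0.874), and the second in KO mouse 2 (0.726). P-values were adjusted over all 14344 genes. At an adjusted p under 0.05, 1 of 36 members was higher in KO mice, where 0.6% of all tested genes were. None of the 36 members was lower, where 0.244% of all tested genes were, and 0.844% of genes were called in either direction. DESeq2 and a moderated linear model on log2 CPM also called 0 members lower. At an unadjusted p under 0.05, 3 members were higher and 5 were lower in KO mice, and the share of all genes at that level was 10.6%. Fold changes were above 0 for 20 members and below 0 for 16, and their median was 0.02 on the log2 scale beside -0.0044 over all tested genes.

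**Figure D1:**
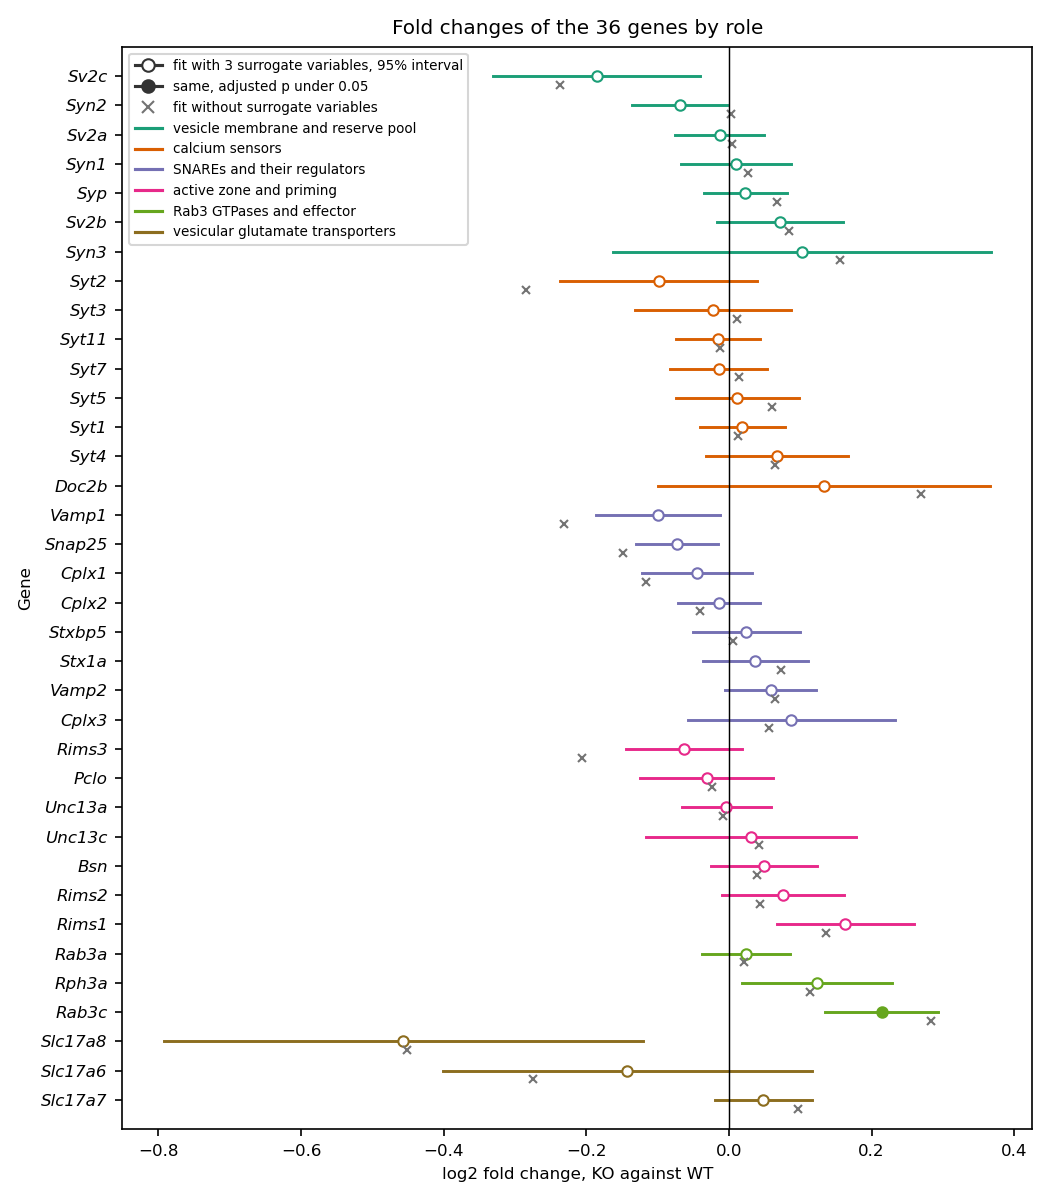
Log2 fold change of KO against WT (horizontal axis) for each of the 36 genes (vertical axis), coloured by role, with the 95% interval from the fit with 3 surrogate variables and crosses for the fit without them. *Rab3c* is the filled point at 0.21, and the wide intervals belong to *Slc17a8*, *Slc17a6*, *Syn3* and *Doc2b*.

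The levels of the members in WT mice were first compared per kilobase of exon, since CPM alone favours long transcripts. Of the 36 members, 23 were above the 90th percentile of the 13602 tested genes with an annotated exon length, 17 were above the 95th, and 6 were below the median. The SNARE gene *Snap25* was highest at 539 ± 24.0 CPM per kb (SD, n = 5). It was followed by *Cplx1* at 341 ± 27.0, *Cplx2* at 293 ± 7.37, *Slc17a7* at 289 ± 21.1 and *Vamp2* at 271 ± 8.69 CPM per kb. The lowest were *Unc13c* at 3.40 ± 0.242, *Syn3* at 1.13 ± 0.15 and *Slc17a8* at 1.02 ± 0.0971 CPM per kb. *Slc17a8* was nevertheless counted in every library, with 101 to 199 reads. Between neighbours in this order, the ranges of the WT mice overlapped in 23 of 35 pairs. Both genes of a pair were measured in the same mice and no test between genes was run, so an overlap does not show equal levels. Among the glutamate transporters, *Slc17a7* (289), *Slc17a6* (4.64) and *Slc17a8* (1.02 CPM per kb) did not overlap in any WT mouse. Exons of 5 members overlap a protein-coding gene on the other strand, and whether reads were counted by strand is not given in the sources used here. The largest such overlap was that of *Syn3* with *Timp3*, over 14.1% of the *Syn3* exon length, so the level of *Syn3* is uncertain. Exons of *Syp* (16.8%) and *Syt4* (14.5%) overlap genes on the other strand that are not protein-coding, so their levels are uncertain too.

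**Figure D2:**
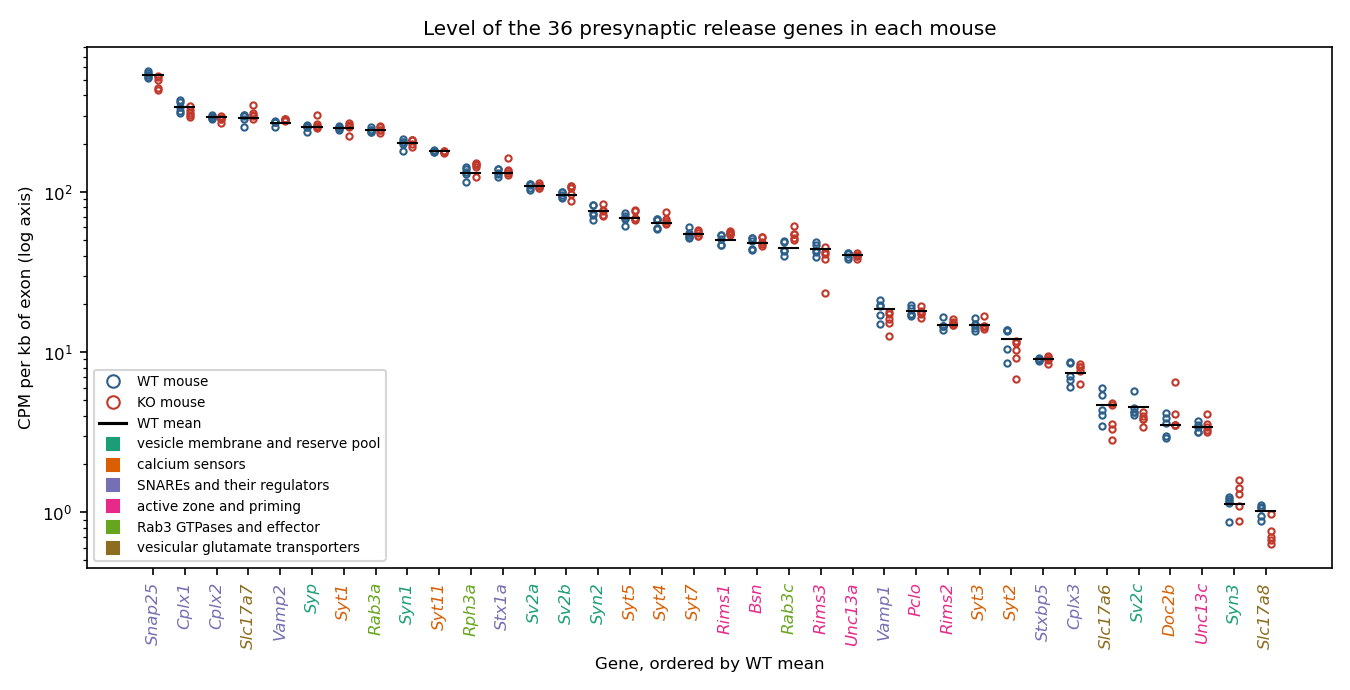
CPM per kb of exon (log axis) in each WT (blue) and KO (red) mouse for the 36 genes, ordered by the WT mean (black line) and with gene names coloured by role. The genes run from *Snap25* at 539 to *Slc17a8* at 1.02 CPM per kb in WT mice, and KO and WT mice overlap for each gene except *Rab3c* and *Vamp2*.

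The Rab3 group held the called gene. Rab3 GTPases sit on the vesicle membrane, and rabphilin, encoded by *Rph3a*, binds their active form. *Rab3c* (ENSMUSG00000021700.10) lies on the minus strand of chromosome 13 at chr13:110054187-110280996 of GRCm38. *Rab3c* was at 621.4, 742.0, 657.7, 606.8 and 657.6 CPM in KO mice 1 to 5, and at 478.2, 517.5, 596.3, 586.9 and 520.3 CPM in WT mice 1 to 5. Every KO mouse was above every WT mouse, and the gap between KO mouse 4 and WT mouse 3 was small beside the spread within each genotype. The log2 fold change was 0.21 (SE 0.037, 95% interval 0.14 to 0.29), a rise of 16.0% (adjusted p = 0.00956). Without surrogate variables the log2 fold change was 0.28 (adjusted p = 0.154), so the call was lost while the direction was the same. The call was also lost without WT mouse 3 (0.24, adjusted p = 0.0571) and without WT mouse 5 (0.17, adjusted p = 0.144). Without KO mouse 3 the log2 fold change was 0.23 (adjusted p = 0.0437).

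The related gene *Rab3a*, the main Rab3 of brain synapses, was at 516.8 to 570.4 CPM in KO and 523.7 to 563.6 CPM in WT mice. The log2 fold change of *Rab3a* was 0.02 (95% interval -0.038 to 0.085). Each mouse's ratio of *Rab3c* to *Rab3a* CPM was 1.105 to 1.436 in KO and 0.848 to 1.102 in WT mice, without overlap. This ratio was not scaled by exon length, and in WT mice *Rab3c* was at 44.8 and *Rab3a* at 242 CPM per kb. The ratio is given as a description, since *Rab3c* was picked for its difference. *Rph3a* was at 701.7, 571.7, 695.6, 680.8 and 662.8 CPM in KO mice 1 to 5, and at 645.8, 534.3, 659.0, 603.9 and 620.3 CPM in WT mice 1 to 5. The groups overlapped because KO mouse 2 was below 4 of the 5 WT mice, and the log2 fold change of 0.12 (SE 0.050, adjusted p = 0.355) did not pass the test.

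The promoter of *Rab3c*, the gene that passed the test, is shown beside that of *Syn1*, a synapsin gene whose promoter is widely used to drive expression in neurons. Both are 300 bases of GRCm38.p6 from RefSeq, 250 before and 50 after the annotated start, read 5′ to 3′ on the minus strand. Capitals mark the motifs found.
*Rab3c*, chr13:110280157-110280456: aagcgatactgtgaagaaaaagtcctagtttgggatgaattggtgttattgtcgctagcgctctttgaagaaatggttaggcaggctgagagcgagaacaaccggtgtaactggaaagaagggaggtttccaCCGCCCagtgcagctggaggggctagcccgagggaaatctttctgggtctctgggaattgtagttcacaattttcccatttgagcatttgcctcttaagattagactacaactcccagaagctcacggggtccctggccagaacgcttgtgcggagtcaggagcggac
*Syn1*, chrX:20920869-20921168: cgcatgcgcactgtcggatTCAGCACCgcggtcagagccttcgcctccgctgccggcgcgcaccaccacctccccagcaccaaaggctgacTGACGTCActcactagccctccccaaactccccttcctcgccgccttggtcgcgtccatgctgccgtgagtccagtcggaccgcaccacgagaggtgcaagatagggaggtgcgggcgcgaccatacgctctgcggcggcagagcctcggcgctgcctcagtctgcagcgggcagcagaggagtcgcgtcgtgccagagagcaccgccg
The *Rab3c* window held 1 GC box (GGGCGG, printed on its other strand) at -118 to -113 from the start. The *Syn1* window held a cAMP response element (TGACGTCA) at -159 to -152 and the left part of an RE1 site (TCAGCACC), the element bound by the neuronal repressor REST, at -231 to -224. The RefSeq start of *Rab3c* is 790 bases inside the gene as annotated by Gencode. RefSeq windows were found for 28 of 36 members, with 39 windows in all. On either strand, the GC box was present in 59.0% of the member windows, beside 60.9% of the windows of all tested genes and 35.7% of all 32851 windows. The E-box CACGTG was in 2 of 39 member windows (5.13%, against 9.33% in tested genes), and TATAAA was likewise in 2 windows (against 7.22%). The RE1 part was in 2 windows (5.13%, against 1.70%), those of *Syn1* and *Unc13a*. The E-box windows belonged to *Sv2b* and *Cplx3*, and both TATAAA windows to *Sv2b*.

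The active zone and priming group comprised *Bsn* and *Pclo*, which encode the giant scaffolds Bassoon and Piccolo, the RIM genes *Rims1*, *Rims2* and *Rims3*, and the Munc13 genes *Unc13a* and *Unc13c*. None of these 7 passed the test, and the log2 fold changes ran from -0.063 to 0.16. *Rims1*, which encodes a scaffold that tethers vesicles and calcium channels, was at 421.6, 406.2, 403.2, 395.2 and 413.1 CPM in KO mice 1 to 5. It was at 397.7, 398.1, 341.3, 373.9 and 345.4 CPM in WT mice 1 to 5. Only KO mouse 4 was below a WT mouse. The log2 fold change was 0.16 (SE 0.045, 95% interval 0.067 to 0.26, adjusted p = 0.132). *Rims1* was called by DESeq2 (adjusted p = 0.0321) and when KO mouse 2, 4 or 5 was left out (adjusted p = 0.0189, 0.0441 and 0.0231), and by no other alternative.

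*Rims2* was at 154.2, 153.1, 159.3, 166.0 and 158.2 CPM in KO mice 1 to 5, and at 150.3, 171.0, 143.4, 150.7 and 152.0 CPM in WT mice 1 to 5. WT mouse 2 was above all KO mice and the other WT mice were below them, with a log2 fold change of 0.08 (SE 0.040, adjusted p = 0.542). *Rims3*, which encodes a short RIM without the domains that bind Rab3 and Munc13, was at 363.2, 326.2, 302.8, 336.6 and 186.8 CPM in KO mice 1 to 5. In WT mice 1 to 5 it was at 371.3, 385.5, 313.4, 334.1 and 343.4 CPM. KO mouse 5 was far below the other 9 mice, which overlapped. The log2 fold change of *Rims3* was -0.063 with surrogate variables (SE 0.038, adjusted p = 0.61), -0.21 without them (adjusted p = 0.74), and 0.02 when KO mouse 5 was left out. *Unc13a*, the main priming factor of cortical terminals, had a log2 fold change of -0.0039 and an interval of -0.066 to 0.058. The intervals of *Bsn* (-0.025 to 0.12) and *Pclo* (-0.12 to 0.062) also held 0. *Unc13c*, the Munc13 gene best known from the cerebellum, had the widest interval of the group (-0.12 to 0.18).

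The SNARE group comprised the core proteins encoded by *Snap25*, *Stx1a*, *Vamp1* and *Vamp2*. It also held the complexins *Cplx1*, *Cplx2* and *Cplx3*, which bind the assembled complex, and *Stxbp5* (tomosyn), which competes for syntaxin. None of the 8 passed the test. *Vamp2*, the main vesicle SNARE of the forebrain, was at 1089.8, 1059.9, 1076.9, 1087.7 and 1082.5 CPM in KO mice 1 to 5. It was at 1044.6, 974.5, 1057.5, 1035.5 and 1047.8 CPM in WT mice 1 to 5. Every KO mouse was above every WT mouse, though KO mouse 2 and WT mouse 3 were close, and the log2 fold change was 0.06 (SE 0.030, 95% interval -0.0051 to 0.12, adjusted p = 0.52). *Vamp2* and *Rab3c* were the members without overlap, 2 of 36, beside 1.58% of all tested genes.

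*Snap25* was at 3535, 3044, 3388, 3596 and 2948 CPM in KO mice 1 to 5, and at 3762, 3882, 3488, 3637 and 3532 CPM in WT mice 1 to 5. KO mice 2, 3 and 5 were below all WT mice, and the log2 fold change was -0.073 (SE 0.027, 95% interval -0.13 to -0.015, adjusted p = 0.315). Without surrogate variables it was -0.15 (95% interval -0.27 to -0.032, adjusted p = 0.516). *Vamp1*, which replaces *Vamp2* at many fast-firing terminals, was at 180.5, 162.8, 154.9, 175.6 and 127.9 CPM in KO mice 1 to 5. It was at 199.5, 215.5, 153.0, 174.1 and 198.3 CPM in WT mice 1 to 5. The genotypes overlapped, and the log2 fold change of -0.10 (SE 0.041, adjusted p = 0.379) did not pass the test. For *Vamp1* it was -0.23 without surrogate variables (adjusted p = 0.581). The ratio of *Vamp1* to *Vamp2* CPM, not scaled by exon length, was 0.118 to 0.166 in KO and 0.145 to 0.221 in WT mice. The complexins had log2 fold changes of -0.044 (*Cplx1*), -0.014 (*Cplx2*) and 0.09 (*Cplx3*), each with an interval that held 0. That of *Cplx1* was -0.12 without surrogate variables (interval -0.23 to 0.0022). *Stx1a* (0.04) and *Stxbp5* (0.02) had intervals of -0.037 to 0.11 and -0.050 to 0.099. *Stx1a* was at 435.1 CPM in KO mouse 5 and at 329.5 to 369.8 CPM in the other 9 mice.

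**Figure D3:**
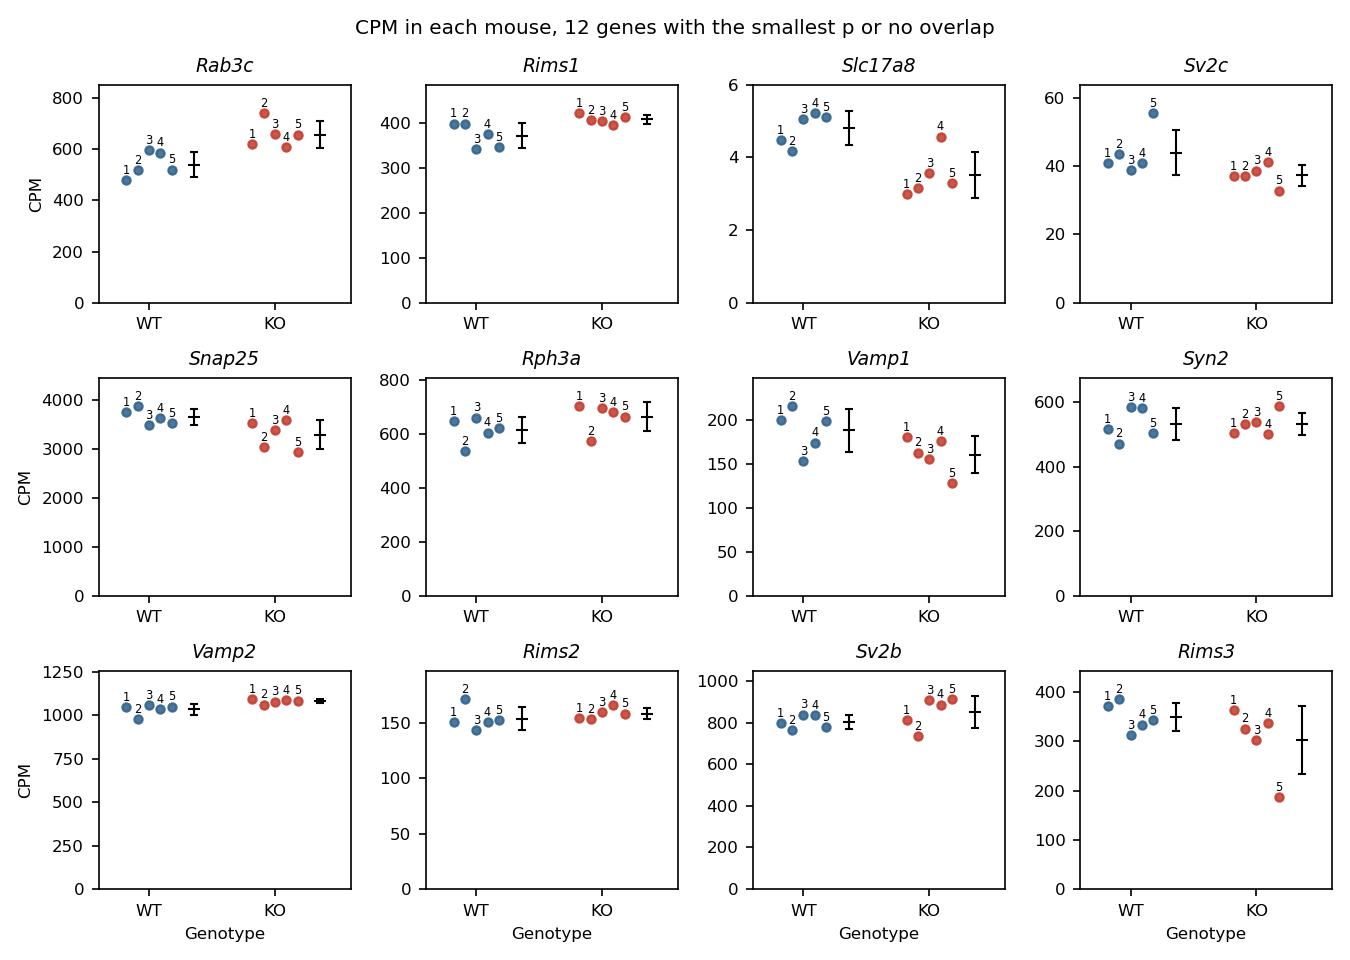
CPM (vertical axis, from 0) in each WT (blue) and KO (red) mouse, numbered by replicate, for the 12 members with an unadjusted p under 0.05, no overlap or the next smallest p, with the mean and SD in black. *Rab3c* and *Vamp2* are the panels without overlap, and KO mouse 5 at 186.8 CPM stands below the other mice for *Rims3*.

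The calcium sensor group held *Syt1* and *Syt2*, the sensors of fast release, *Syt7*, a sensor of slow release, *Syt3* and *Syt5*, the isoforms *Syt4* and *Syt11*, which bind calcium poorly or not at all, and *Doc2b*, a high-affinity sensor. All 8 intervals held 0. *Syt1* (log2 fold change 0.02, interval -0.041 to 0.079), *Syt7* (-0.015, interval -0.083 to 0.054) and *Syt11* (-0.016, interval -0.074 to 0.043) were bounded closely. *Syt11* was also the steadiest member, with a coefficient of variation of 1.61% among WT mice. *Syt2* ranged from 52.0 CPM in KO mouse 5 to 105.3 CPM in WT mouse 5. Its log2 fold change was -0.28 without surrogate variables and -0.099 with them (adjusted p = 0.651). *Doc2b* was at 28.4 CPM in KO mouse 2 and between 12.6 and 18.0 CPM in the other 9 mice, and its log2 fold change was 0.13 (interval -0.100 to 0.37). *Syt3*, *Syt4* and *Syt5* had log2 fold changes of -0.022, 0.07 and 0.01.

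Among the 7 genes of the vesicle membrane and reserve pool, *Syp* (synaptophysin), *Syn1* and *Sv2a* had log2 fold changes of 0.02, 0.0100 and -0.013, and intervals within -0.075 to 0.087. *Sv2c*, the vesicle glycoprotein known for its high level in the basal ganglia, was at 37.1, 37.0, 38.8, 41.2 and 32.8 CPM in KO mice 1 to 5. It was at 40.9, 43.6, 39.0, 41.0 and 55.7 CPM in WT mice 1 to 5. Only KO mouse 4 overlapped the WT mice, and the log2 fold change of -0.19 (SE 0.068, adjusted p = 0.311) did not pass the test. The summed level of 10 striatal neuron markers was also highest in WT mouse 5, at 591 CPM, beside 294 to 325 CPM in the other WT and 322 to 486 CPM in the KO mice. Of these 10 markers, 8 had log2 fold changes above 0, with a median of 0.19 over all 10, and none was called. With the striatal score as a covariate and no surrogate variables, the log2 fold change of *Sv2c* was -0.30 (adjusted p = 0.282), beside -0.24 without the score (adjusted p = 0.526). Without WT mouse 5 it was -0.069 (adjusted p = 0.835). *Sv2b* was at 810.4, 736.7, 909.1, 886.6 and 911.7 CPM in KO mice 1 to 5, and at 798.7, 762.7, 838.6, 836.8 and 777.4 CPM in WT mice 1 to 5. The groups overlapped, since KO mouse 2 was the lowest of all mice, with a log2 fold change of 0.07 (SE 0.041, adjusted p = 0.583). *Syn2* was at 504.6, 531.9, 538.4, 499.9 and 587.2 CPM in KO mice 1 to 5, and at 516.6, 471.6, 583.5, 581.2 and 503.9 CPM in WT mice 1 to 5. The genotypes overlapped widely, and the log2 fold change of -0.069 (SE 0.032, adjusted p = 0.454) became 0.0030 without surrogate variables. *Syn3* was at 10.8 to 19.6 CPM in KO and 10.7 to 15.3 CPM in WT mice, and its interval was -0.16 to 0.37.

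Among the glutamate transporters, *Slc17a7* had a log2 fold change of 0.05 with an interval of -0.020 to 0.12. *Slc17a6* was at 15.3 to 26.0 CPM in KO and 18.6 to 32.3 CPM in WT mice, and its interval was wide, at -0.40 to 0.12. The summed level of 8 thalamic markers, of which *Slc17a6* is 1, was 147 to 187 CPM in KO and 159 to 210 CPM in WT mice. Both were highest in WT mouse 2 within the WT group, and the part of these markers was not tested. *Slc17a8*, the transporter of a few neurons that release glutamate beside another transmitter, was at 2.99, 3.16, 3.58, 4.58 and 3.29 CPM in KO mice 1 to 5. In WT mice 1 to 5 it was at 4.49, 4.17, 5.05, 5.23 and 5.12 CPM. Only KO mouse 4 overlapped the WT mice. The log2 fold change of -0.46 was the largest in size among the members, but its error was also the largest (SE 0.16, 95% interval -0.79 to -0.12), and it did not pass the test (adjusted p = 0.266). In tissue RNA, fewer cells of a type and less RNA in each cell cannot be told apart.

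The size of difference that the 10 mice could bound differed among members. The 95% interval lay within 0.1 of 0 on the log2 scale for 11 members, within 0.15 for 21, within 0.2 for 26, and within 0.3 (a change of 23.1% upward) for 31. The 5 members outside 0.3 were *Syn3*, *Sv2c*, *Doc2b*, *Slc17a6* and *Slc17a8*, which had 5 of the 6 lowest WT levels per kb. These counts rest on the surrogate variables, since without them 4 members lay within 0.1, 14 within 0.15, 19 within 0.2 and 27 within 0.3. *Syt2*, *Vamp1*, *Rims3* and *Rab3c* were then also outside 0.3.

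Single mice stood at the extremes of many members, and the same mice also deviated most over all tested genes. The interquartile range of log2 deviations over the members was 0.220 in KO mouse 5 and 0.191 in WT mouse 2. Over all tested genes it was 0.219 and 0.178, also the widest of the 10 mice. These libraries had the most counts (51231439 and 47343536), and KO mouse 5 had the lowest RIN (8.1). WT mouse 2 had the lowest value of the 10 mice in 13 members and the highest in 5. KO mouse 5 had the highest value in 9 members, among them *Syp*, *Syt1*, *Stx1a* and *Slc17a7*, and the lowest in 6, namely *Sv2c*, *Syt2*, *Snap25*, *Vamp1*, *Cplx1* and *Rims3*. KO mouse 4 had neither in any member. The summed level of 8 parvalbumin interneuron markers was also lowest in KO mouse 5, at 524 CPM, beside 601 to 637 CPM in the other KO and 607 to 711 CPM in WT mice. Of these 8 markers, 6 had log2 fold changes below 0 and 2 above 0. *Nefh* was called lower in KO mice (-0.27, adjusted p = 0.00508), while *Pvalb* (-0.14, adjusted p = 0.447), *Tac1* (0.36, adjusted p = 0.0915) and *Pthlh* (0.22, adjusted p = 0.755) did not pass the test. The part of these markers in *Syt2*, *Vamp1* and *Rims3* was not tested. No gene of the other 10 marker lists, for glutamatergic and GABAergic neurons, layer 6b, striatal and thalamic neurons, cerebellar granule cells and glia among them, was called.

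**Figure D4:**
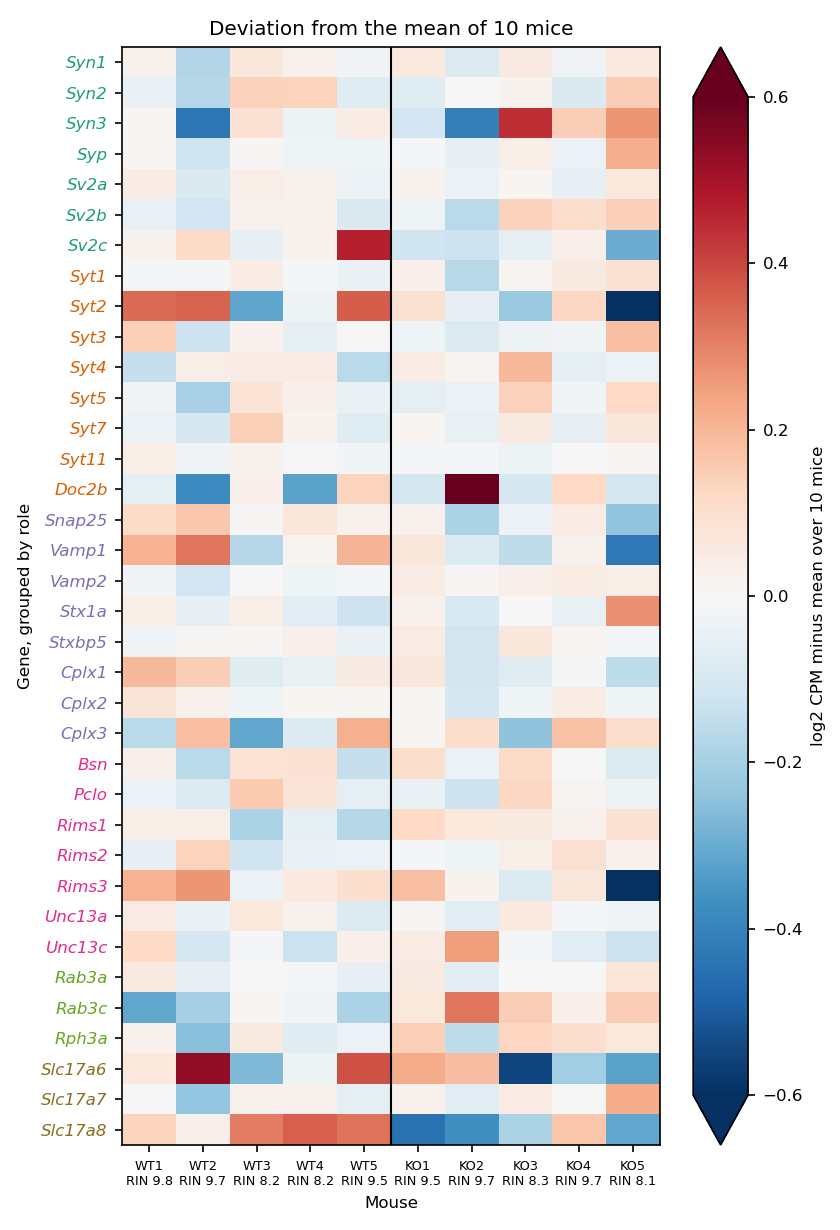
Difference of each mouse's log2 CPM from the mean of the 10 mice (colour, cut at 0.6 either way) for the 36 genes (rows, grouped by role) in each mouse (columns, with RIN). KO mouse 5 has the darkest blue cells at *Syt2* and *Rims3*, and KO mouse 2 the darkest red cell at *Doc2b*.

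RIN was spread evenly over the genotypes, but moved with several members. The difference in mean log2 CPM between mice with RIN of 9.5 or above and the others was larger in size than that between genotypes for 25 of 36 members. The same share over all tested genes was not computed. The RIN difference was positive for 13 members, among them *Syt2* (0.51), *Slc17a6* (0.49), *Rims3* (0.35) and *Vamp1* (0.31). It was negative for 23, among them *Syn3* (-0.32). *Syn2*, *Syt5*, *Syt7* and *Slc17a7* were lower in all 6 mice with high RIN than in all 4 with low RIN, which was 4 of 36 members beside 2.5% of all tested genes without overlap between the RIN classes. Within each RIN class the KO mice differed from WT in the same direction for 29 members and in opposite directions for 7. The 7 were *Syn2*, *Syt1*, *Syt3*, *Syt7*, *Bsn*, *Pclo* and *Unc13a*. This split was not computed over all tested genes either. Some of the differences were near 0, such as those of *Stxbp5* (0.0014 at high and 0.0098 at low RIN). For *Rab3c* the mean log2 difference was 0.37 at high and 0.15 at low RIN. For *Slc17a8* it was -0.38 and -0.58, and for *Rims1* it was 0.10 and 0.19.

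**Figure D5:**
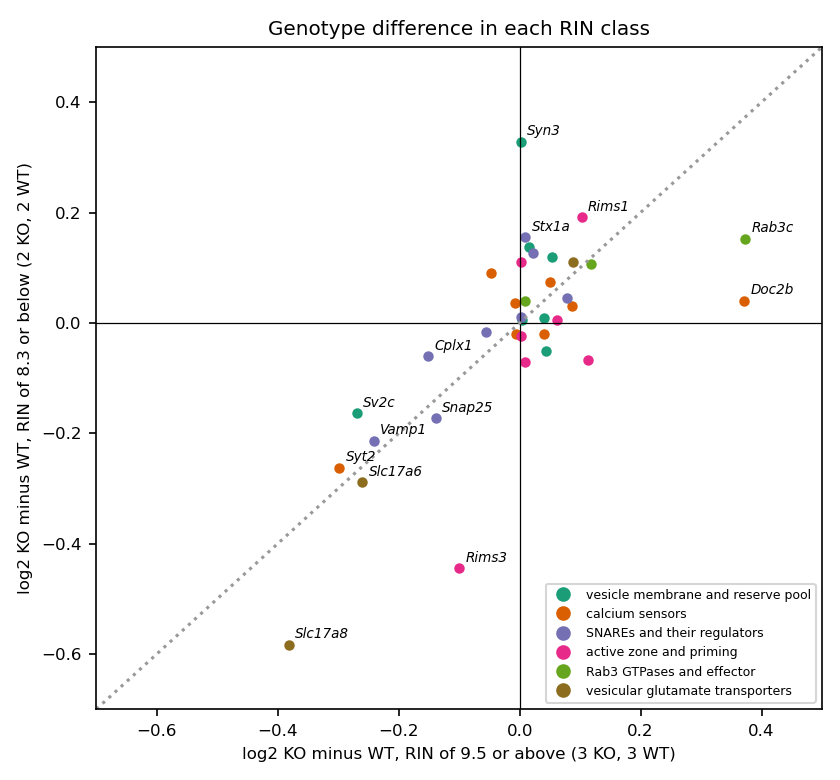
Mean log2 difference of KO minus WT for the 36 genes in mice with RIN of 9.5 or above (horizontal axis) against that in mice with RIN of 8.3 or below (vertical axis), with the line of equal values dotted. *Rab3c* lies at 0.37 and 0.15, and *Slc17a8* at -0.38 and -0.58.

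The genes around the members in the same pathway were then examined. Of 79 other genes of vesicle release, including further SNAREs, liprins, ELKS proteins and regulators of Rab3 and Rab27, 77 were in the table and 72 were tested. None was called higher, and 2 were called lower, where 0.244% of all tested genes were. This list was chosen with earlier results of these data known, so the shares are given as a description. At an unadjusted p under 0.05, 3 were higher and 4 were lower, beside 10.6% of all tested genes in either direction. *Stxbp6* (amisyn), which binds syntaxin in place of a vesicle SNARE, was at 84.6 ± 4.21 CPM in KO and 103 ± 4.17 CPM in WT mice without overlap, with a log2 fold change of -0.27 (SE 0.046, adjusted p = 0.00878). It was also called without surrogate variables (adjusted p = 0.0171), and not when WT mouse 3 (adjusted p = 0.0769) or WT mouse 4 (adjusted p = 0.0546) was left out. *Sytl2*, which encodes an effector of Rab27 GTPases, had a log2 fold change of -0.18 (SE 0.040, adjusted p = 0.0428) and was not called without surrogate variables (adjusted p = 0.423). It was also called when KO mouse 5 or WT mouse 2 was left out, but not when any of the other 8 mice was, KO mouse 3 among them (adjusted p = 0.166). Of 47 tested genes of vesicle recycling and refilling, such as dynamins, adaptors and proton pump subunits, none was called in either direction, and DESeq2 called none either. At an unadjusted p under 0.05, 2 of the 47 were higher and 0 were lower, a smaller share than the 10.6% of all tested genes. The median log2 fold change was -0.0054 for the other release genes and 0.0028 for the recycling genes, both near that of all tested genes.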

How the data were processed

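RNA from the PFC of 5 KO and 5 WT mice was sequenced from stranded poly(A) libraries. After alignment to mm10 (STAR 2.7.1a), the authors removed secondary and multi-mapped reads and deposited raw counts per protein-coding gene of Gencode M21, made with HTSeq 0.9.1. The strand setting of HTSeq is not given in the sources used here. Groups and replicate numbers were taken from the labels, and littermates are stated only for the mice of the behavioral tests and weight measurement. No 2 libraries were alike within sampling noise.

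Counts were fitted in R 4.3.3 with edgeR 4.0.16 (filterByExpr, TMM, quasi-likelihood F test) with terms for genotype and for 3 surrogate variables. The latter came from log2(CPM + 1) values by sva 3.50.0. P-values were two-sided and adjusted by Benjamini-Hochberg over all 14344 tested genes, with a threshold of 0.05. CPM was scaled by TMM. An overlap means that the ranges of KO and WT values meet. Intervals and the 3-count limit were computed without allowance for PCR duplicates. The full values in each mouse are given for members with an unadjusted p under 0.05 or no overlap, and for those with the next smallest p up to 12. The fit was tested on simulated data. Alternatives were other numbers of surrogate variables, covariates, normalizations and filters, DESeq2 1.42.0, limma 3.58.1, RIN classes, and leaving out each mouse. The members, the other gene lists and the naming rule were chosen with earlier results of these data known.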

Additional observations from a re-analysis of the deposited data

Results flagged for a closer look

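In 6 of 74 groups of 5 mice tested, 1 mouse lay apart from the other 4 by more than Dixon's 95% limit. Chance alone gives about 5% of groups, but the groups reuse the same mice and are not independent. An excess over chance therefore cannot be read from this share. WT mouse 2 was low for 3 members. *Syn3* was at 10.7 CPM in WT mouse 2 and 14.1 to 15.3 CPM in the other WT mice. *Syp* was at 1239 CPM there, beside 1323 to 1355 CPM. *Vamp2* was at 974 CPM there, beside 1036 to 1057 CPM, and it did not overlap between genotypes with or without this mouse. *Sv2c* was high in WT mouse 5, at 55.7 CPM beside 39.0 to 43.6 CPM in the other WT mice. *Syt3* was high in KO mouse 5, at 52.1 CPM beside 43.4 to 45.3 CPM. *Doc2b* was high in KO mouse 2, at 28.4 CPM beside 15.2 to 17.8 CPM in the other KO mice.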

How the results depend on the processing

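The count of members called higher (1) was 0 without surrogate variables, with 1 or 2 of them, with RIN or a striatal marker score as the covariate, in mice with RIN of 9.5 or above, and in mice with RIN under 9.5, an alternative chosen after seeing the data. It was 2 with DESeq2 (*Rab3c* and *Rims1*), and 0 to 2 when each mouse was left out. No alternative called a member lower. *Rab3c* was called in 5 of 13 alternatives (adjusted p from 2.07e-05 to 0.865) and in 8 of 10 leave-outs, with a log2 fold change from 0.15 to 0.38. The count of other release genes called lower (2) was 1 without surrogate variables, with 1 or 2 of them, with RIN or the striatal score, and with no filter, and 0 in mice with RIN of 9.5 or above. It was 0 to 3 when each mouse was left out, and 0 to 1 were called higher. The count of members without overlap (2) was 2 to 5 when each mouse was left out, and was 5 without KO mouse 4 (with *Sv2c*, *Rims1* and *Slc17a8*). Leaving out a mouse makes a lack of overlap more likely for any gene. The share over all tested genes was not computed for these leave-outs, so their counts cannot be read as a trait of the members. *Syn2* changed direction without surrogate variables (0.0030), with RIN (0.0030), with the striatal score (0.018), with the replicate block (0.0055) and at high RIN (0.044). *Rims3* ran from -0.095 to 0.020 when each mouse was left out, and changed direction without KO mouse 5. The cause was not tested. Of the 24 members not given in full, 0 to 7 changed sign under each setting and none was called.

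Same-numbered KO and WT mice are different animals, and their deviations correlated by -0.11 to 0.17, with 2 of 5 mice closest to their own number. With the replicate number as a block and no surrogate variables, 0 members were higher, 1 other release gene was lower and 24 genes were called in all. Over all genes, the 121 calls became 30 without surrogate variables, 34 with 1, 57 with 2, 38 with RIN, 15 with the striatal score, 224 with DESeq2, 1 at high RIN, 0 at low RIN and 39 to 248 when each mouse was left out. *Slc17a8*, the member with the fewest reads (101 to 199 a library), also had the widest interval.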
